A study of Saccharomyces cerevisiae with 48 samples.

Results

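The noncoding RNA genes of Saccharomyces cerevisiae outside the ribosomal DNA were taken as every counted interval whose systematic name starts with YNC, leaving out the 22 that start within the ribosomal DNA locus on chromosome XII. This gave 381 of 6465 intervals, of which 275 were tRNA genes, 76 snoRNA genes and 30 other RNA genes. The 30 comprised 6 snRNA, 13 ncRNA and 7 antisense RNA genes, telomerase RNA (TLC1), RNase P RNA (RPR1), signal recognition particle RNA (SCR1) and RNase MRP RNA (NME1). Each interval held the gene and the 250 bases after its 3' end, so 85 members shared bases with a coding interval on the same strand (55 tRNA, 23 snoRNA and 7 other genes). Results are given mainly for the 296 members without such an overlap. Separately, 29 members shared bases with another noncoding interval on the same strand (9 tRNA, 17 snoRNA and 3 other genes), where a read can count for both.

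The study asked how domains of the bromodomain and extra-terminal (BET) protein Bdf1 contribute to transcription, using SLAM-seq, which reads newly made RNA by T-to-C conversions from incorporated 4-thiouracil (4tU). In each of 8 strains, auxin (1 mM IAA for 3 h, with DMSO alone as the control) degraded Bdf1 and Bdf2, both carrying a 3xV5-mAID tag, through OsTIR1 expressed from the GPD1 promoter, after which 5 mM 4tU was added. There were 3 replicates, lettered A to C, in each of the 16 groups, making 48 libraries. All strains carried the tags and OsTIR1. RDY73 had nothing more, whereas the others also had a BDF1 copy integrated with a TRP1 marker. That copy was unmodified in RDY234. It was mutated in bromodomain 1 in RDY235, in bromodomain 2 in RDY236 and in both in RDY237. Motif B and the basic interaction domain (BID) were deleted from it in RDY247, while RDY249 and RDY251 carried 2 and 4 changed residues of the ET domain.

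Transfer RNA genes are read by RNA polymerase III from promoter elements inside the gene, the A and B boxes, and transcription ends in a run of T on the coding strand. U6 snRNA (SNR6), SCR1, RPR1 and the snoRNA SNR52 are also made by RNA polymerase III. Most snoRNAs, the other spliceosomal snRNAs and TLC1 are made by RNA polymerase II. Box C/D snoRNAs guide ribose methylation and box H/ACA snoRNAs guide pseudouridylation of ribosomal RNA. The libraries were 3' mRNA sequencing libraries, which favour polyadenylated ends, and mature tRNAs and snoRNAs mostly lack a poly(A) tail. The read counts are therefore not levels of the mature RNAs.

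The tRNA genes below are the 5 raised in total reads in RDY73 with the smallest adjusted p, a copy of the first with the same mature sequence that went the other way, and the tRNA gene SUF16. They are given with SNR6 and SNR40 as examples of the other classes. Each is the annotated gene with the 20 bases after it, written 5' to 3' on the gene's strand (RefSeq, build R64). Capitals mark the B box letters searched, GTTCGANNC, within tRNA genes. They also mark the first TTTT after the end of the annotated gene, and in SNR40 the box D letters CTGA. In SNR40, which also has TTTT within the 20 bases after the gene, only box D is in capitals. Their positions, with these 20 bases, are given beside their values.
SOE1 (tRNA-Glu): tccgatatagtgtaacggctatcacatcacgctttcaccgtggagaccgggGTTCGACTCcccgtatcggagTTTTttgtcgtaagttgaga
YNCK0005C (tRNA-Glu): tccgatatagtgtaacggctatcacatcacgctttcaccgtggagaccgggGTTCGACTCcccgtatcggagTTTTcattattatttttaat
YNCE0018W (tRNA-Glu): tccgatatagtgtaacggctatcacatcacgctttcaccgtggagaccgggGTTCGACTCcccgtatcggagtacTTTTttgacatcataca
YNCB0018W (tRNA-Glu): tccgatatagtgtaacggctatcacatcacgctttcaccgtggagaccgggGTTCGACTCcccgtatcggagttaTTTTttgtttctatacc
SUF2 (tRNA-Pro): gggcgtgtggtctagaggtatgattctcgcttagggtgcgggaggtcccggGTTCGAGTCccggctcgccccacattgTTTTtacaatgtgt
YNCN0004W (tRNA-Thr): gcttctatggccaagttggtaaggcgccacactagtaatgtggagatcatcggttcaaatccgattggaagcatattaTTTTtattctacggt
SUF16 (tRNA-Gly): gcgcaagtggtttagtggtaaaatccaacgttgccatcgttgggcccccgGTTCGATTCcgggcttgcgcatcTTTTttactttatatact
SNR6 (U6 snRNA): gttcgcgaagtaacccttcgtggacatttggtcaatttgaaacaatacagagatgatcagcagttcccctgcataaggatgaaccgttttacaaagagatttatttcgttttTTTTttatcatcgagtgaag
SNR40 (box C/D snoRNA): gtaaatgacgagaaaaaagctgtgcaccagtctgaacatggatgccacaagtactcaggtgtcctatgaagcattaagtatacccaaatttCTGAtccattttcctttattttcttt

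The first 4 genes are identical over the mature tRNA and differ only in the bases that follow. On the gene's strand, GTTCGANNC was found in 200 of 275 tRNA genes (72.7%), in 2 of the 30 other genes, in no snoRNA gene and in 4.1% of 5995 coding genes. TTTT lay within 20 bases after 269 of 275 tRNA genes (97.8%) and after 81.4% of all members. CTGA lay in the last 20 bases of 45 of 47 box C/D snoRNA genes and of 14.7% of all members. These matches describe the letters and are not tests of a site.

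Depth limited what could be tested. Libraries held 3301563 to 10699839 S. cerevisiae reads and 336128 to 1242931 reads of the added Schizosaccharomyces pombe cells, which set the scale of every value below (normalised reads). The members took 0.567 to 1.479% of the S. cerevisiae reads, 41599 to 125183 reads per library, of which 706 to 14554 were T>C reads (at least 2 conversions). With a mean of at least 10 reads over the 48 libraries required, 138 members of 5118 genes were tested for T>C reads (62 tRNA, 60 snoRNA, 16 other) and 294 of 5907 for total reads (198, 75 and 21). One library stood apart for short RNAs: in RDY73 under DMSO, replicate B held 14398 summed snoRNA reads against 31413 and 29718 in A and C. Likewise replicate C of RDY247 under IAA held 13753 against 42206 and 41532, and the RDY249 A libraries were the highest of their groups at 43251 (DMSO) and 42648 (IAA). Counts over all members that rest on these libraries are given without them too, singly or within a range. Counts and medians by class, isotype or list are not given without them.

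Under IAA in RDY73, summed T>C reads of all classes were far lower, while summed total reads of tRNA intervals were higher. These sums were not tested. Summed over the 220 tRNA intervals without coding overlap, T>C reads were 2250 ± 330 (SD, n = 3) under DMSO and 177 ± 13.1 under IAA. Total reads of the same intervals were 12094, 10272 and 12438 under DMSO and 15282, 15972 and 16686 under IAA. The IAA libraries were thus all higher than the DMSO libraries. In RDY251 the tRNA total was 8485 to 10349 under DMSO and 10498 to 15041 under IAA, again without overlap, and in RDY234 it was 11525 to 13645 and 12106 to 13303, with overlap. The share of T>C reads in the tRNA intervals was 19.3% ± 0.960 in RDY73 under DMSO and 1.11% ± 0.0630 under IAA. Because the scale comes from added cells, fewer cells and less RNA per cell cannot be told apart.

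**Figure D1:**
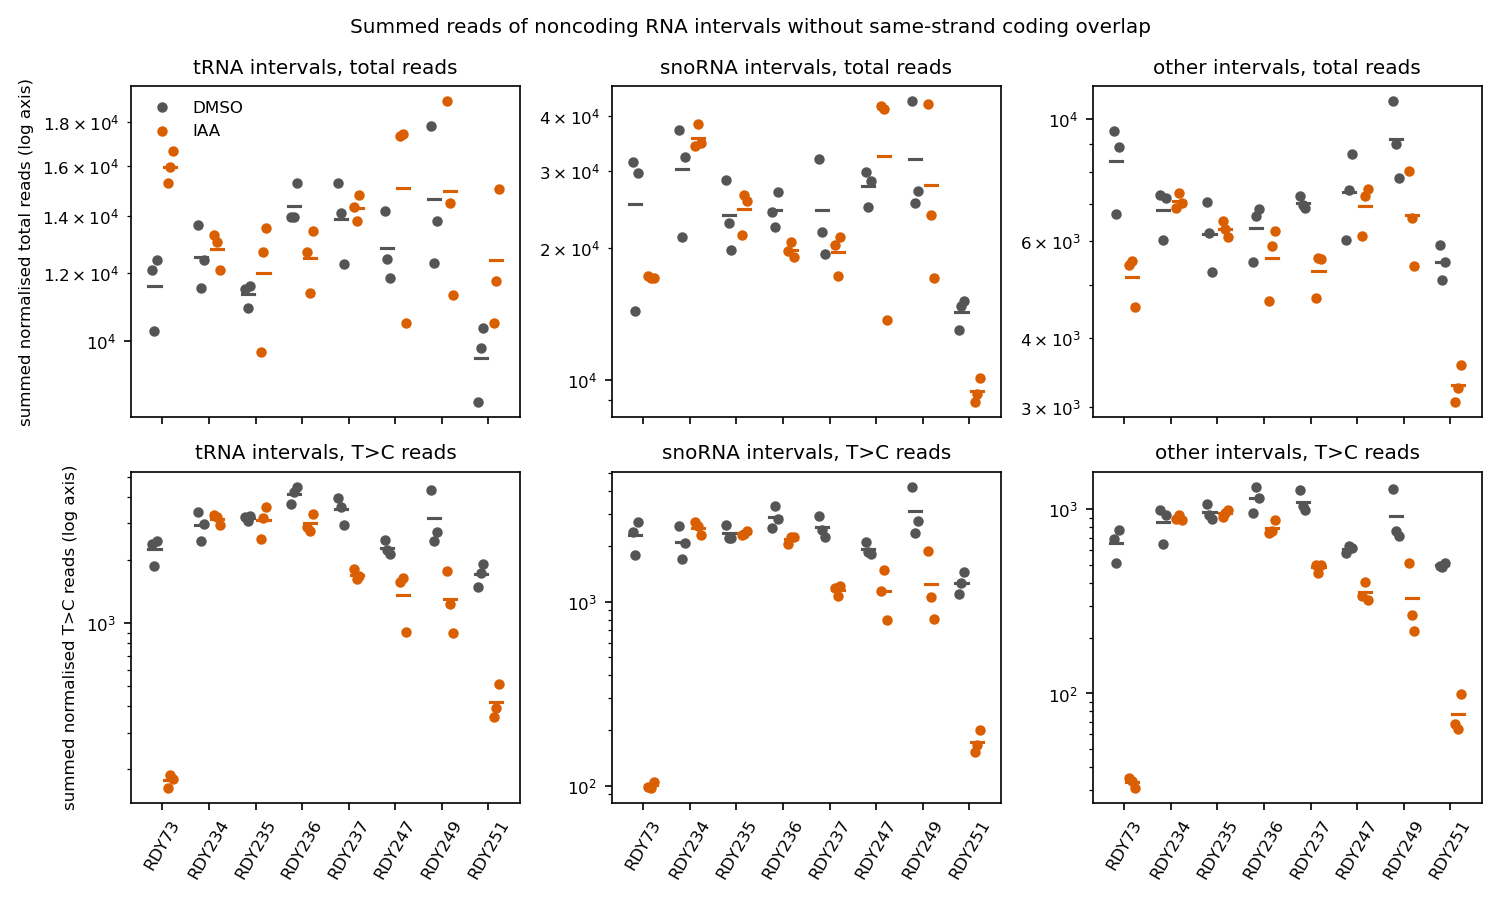
Summed total reads (top) and T>C reads (bottom), normalised to S. pombe and on log axes, for the tRNA, snoRNA and other intervals without same-strand coding overlap. Points are libraries, bars are means of 3, grey is DMSO and orange is IAA. In RDY73, T>C reads of tRNA intervals went from 2250 to 177 while total reads were higher in every IAA library than in every DMSO library.

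All 138 members tested for T>C reads were lowered in RDY73 (adjusted p under 0.05 and at least 2-fold, edgeR's quasi-likelihood test with Benjamini-Hochberg adjustment over all genes tested), as were 99.9% of all genes. Their median log2 change was -4.39 against -5.57 over all genes, and with the 2 members without a T>C read under IAA at their bound it stayed at -4.39. Among members without coding overlap the median was -3.65 for 45 tRNA, -4.41 for 42 snoRNA and -4.22 for 12 other intervals. In RDY251, 128 of 138 were lowered (all genes 99.1%), with a median of -2.92 against -3.48. There the tRNA intervals were lowered in 36 of 45 (median -1.71), against 42 of 42 snoRNA (-3.17) and 12 of 12 other intervals (-2.80). The median member had 9 T>C reads summed over the 3 RDY73 IAA libraries and 85 over the DMSO libraries, so single values under IAA rest on few reads. These directions hold against S. pombe reads, whereas under TMM scaling, which moved the RDY73 median of all genes from -5.57 to -0.35, only 46 members were called in RDY73 and the named genes SOE1, SCR1 and YNCE0028C had positive changes.

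In the other strains fewer members passed. T>C reads were lowered for 86 members in RDY237 (all genes called 90.5%), 103 in RDY249 (94.6%) and 59 in RDY247 (76.7%), with medians of -1.24, -1.38 and -0.87 against -1.61, -1.81 and -1.30 over all genes. Without IAA replicate C the RDY247 count was 39. In RDY236 there were 3 (all genes 5.3%), which were SNR46, SNR38 and YNCL0035C, named after their values were seen. No member was called in RDY234 (all genes 0.0%) or RDY235 (0.0195%). There edgeR gave 2 members in each at an unadjusted p under 0.05, and DESeq2 called 0 in both.

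Against RDY234 under IAA, T>C reads of 134 members were lower in RDY251 (all genes called 99.2%) and of 85 in RDY237 (84.2%). In RDY247 88 were lower and YNCP0009W was higher (65.6%). In RDY249 89 were lower and YNCN0006W was higher (66.9%). RDY247 and RDY249 belong to another series of library numbers than RDY234, so a difference between the series cannot be told apart from the variant in these counts. In RDY236, SUF8, SNR71, SNR38 and SNR75 were lower and YNCN0006W higher (1.93%), a count that came to 1 to 3 when any 1 library was left out. No member differed in RDY235 (0.137%), where edgeR gave 16 at an unadjusted p under 0.05 and DESeq2 called 0. The IAA response itself differed from that of RDY234 for 137 members in RDY73 (all genes 99.9%), 129 in RDY251 (99.0%), 105 in RDY249 (92.8%), 94 in RDY237 (88.2%) and 60 in RDY247 (69.8%). It differed for none in RDY235 (0.0%) or RDY236 (0.0%), where edgeR gave 2 and 32 at an unadjusted p under 0.05 and DESeq2 called 0. All these comparisons share the RDY234 libraries.

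In total reads, tested for 294 members against 138 for T>C reads, calls went in both directions. In RDY73, 90 of 294 members were lowered against 84.8% of all genes, and 87 were raised against 2.52% of all genes, so that members were 87 of the 149 raised genes. The median member changed by -0.13 on the log2 scale and the median gene by -2.25. In RDY251, 74 were lowered (all genes 76.5%) and 69 raised (1.85%), with medians of -0.26 and -1.55. Of the 87 raised in RDY73, 84 were tRNA intervals and the others were SCR1, SNR6 and SNR14, and all 69 in RDY251 were tRNA intervals. Without DMSO replicate B, 97 were lowered and 78 raised in RDY73. The count of raised members was 68 in RDY73 and 55 in RDY251 when the filter on low counts used the DMSO libraries only, an alternative chosen after seeing the data. The share of all genes raised with that filter was not counted. Of 663 coding genes with a mean of 10 to 50 total reads over the 48 libraries, 511 were lowered and 24 raised in RDY73 (median -2.28). That mean includes the IAA libraries, so these genes were not matched to the members on DMSO reads.

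The same order was seen in the strains with a milder loss of T>C reads. In RDY247, 17 members were lowered (all genes 13.7%) and 42 raised (2.18%), of which 40 were tRNA intervals and the others SCR1 and SNR14. Without its IAA replicate C these counts were 8 and 67. In RDY249, 35 were lowered (20.1%) and 24 raised (1.61%), and in RDY237 25 were lowered (24.5%) and 18 raised (1.35%), all of the raised being tRNA intervals. In RDY249 these counts were 20 and 33 without DMSO replicate A, 50 and 18 without IAA replicate A, and 17 and 36 without IAA replicate C, and in RDY237 29 were raised without DMSO replicate A. In RDY236, YNCB0015W, YNCB0016W, SUP6 and YNCM0021C, all tRNA genes, were lowered (0.83%) and YNCK0006C was raised (0.372%). The intervals of YNCB0015W and YNCB0016W overlap on the same strand, so their calls are not separate. YNCK0006C held 6.12, 1.96 and 12.7 reads under DMSO and 9.24, 16.6 and 23.8 under IAA in RDY236, so the groups overlapped, and its call (adjusted p = 0.0271, edgeR) was lost without DMSO replicate A or B or IAA replicate B or C. No member passed in RDY234, lowered (0.0169%) or raised (0.0339%), nor in RDY235 (0.0169% and 0.119%). There edgeR gave 8 and 7 members at an unadjusted p under 0.05 and DESeq2 called 0 in both.

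**Figure D2:**
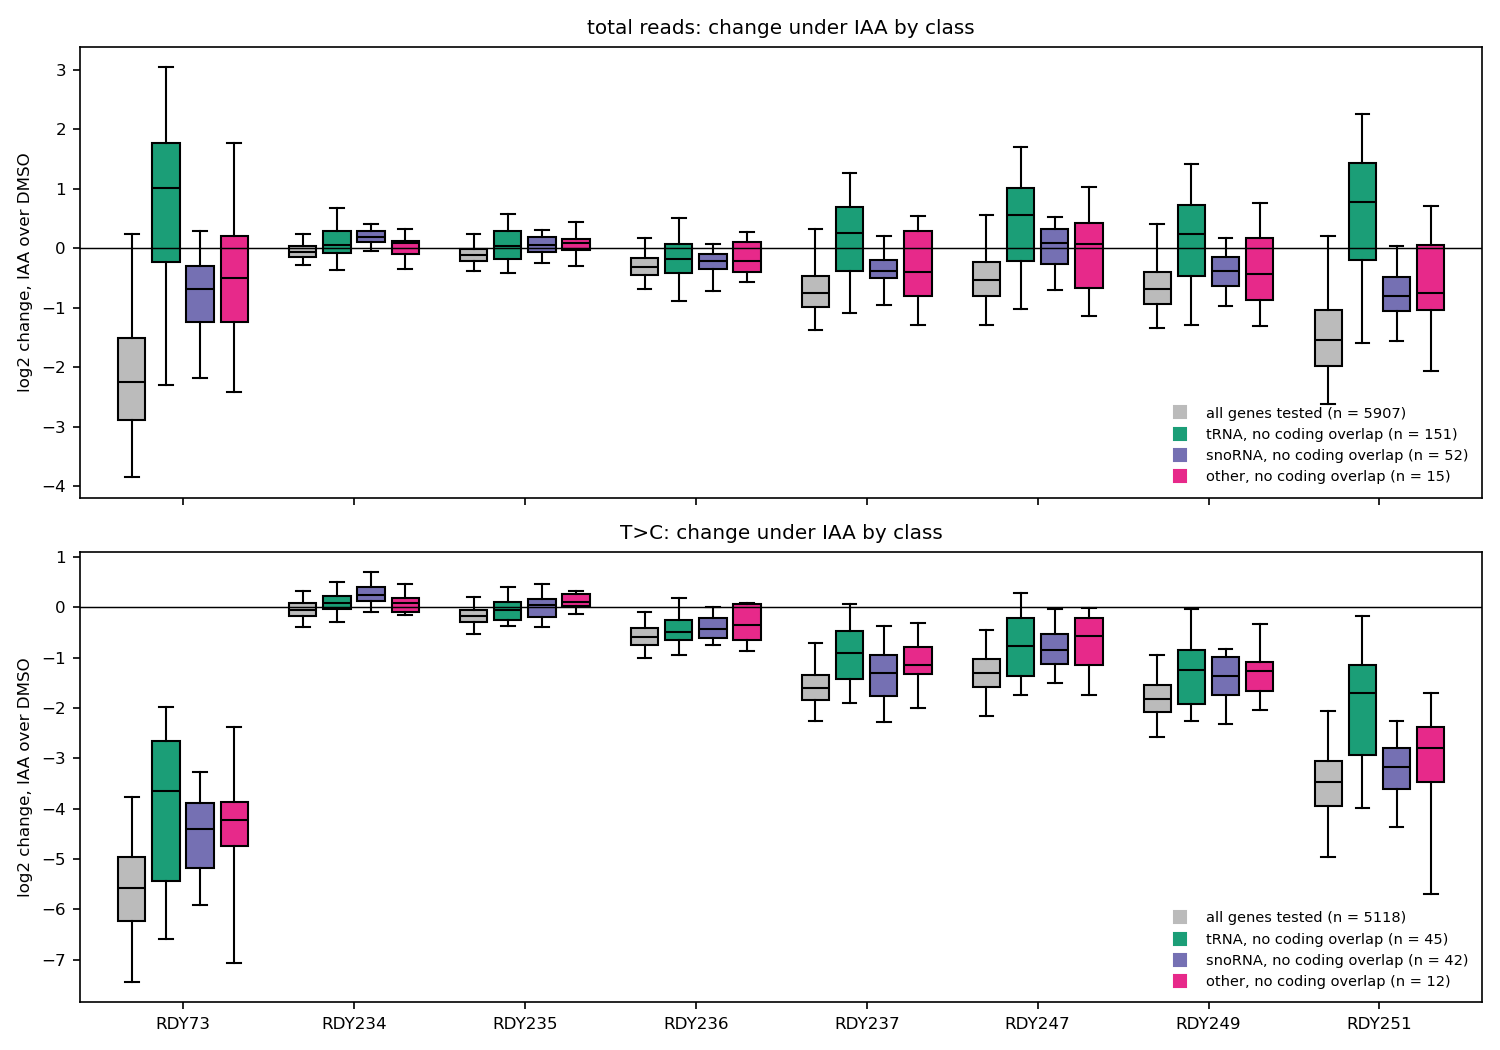
Log2 change under IAA of total reads (top) and T>C reads (bottom) in each strain, for all genes tested (grey) and for tRNA, snoRNA and other intervals without same-strand coding overlap. Boxes span the 25th to 75th percentile with the median, and whiskers the 5th to 95th percentile. In RDY73 total reads the tRNA median was 1.01, the snoRNA median -0.69 and the median of all genes -2.25.

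Taking the 151 tested tRNA intervals without coding overlap, 76 were raised and 26 lowered in RDY73 (median 1.01). RDY251 had 64 raised and 23 lowered (0.78) and RDY247 had 37 and 9 (0.55). RDY249 had 21 and 20 (0.24) and RDY237 had 16 and 11 (0.25). The medians in RDY234 and RDY235 were 0.05 and 0.04. For the 47 tRNA intervals that shared bases with a coding interval the RDY73 numbers were 8 raised and 20 lowered (median -0.63). Reads in such intervals cannot be given to the tRNA gene with certainty.

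The 5 raised genes with the smallest adjusted p in RDY73 were 3 tRNA-Glu genes, 1 tRNA-Pro and 1 tRNA-Thr gene. SOE1 (tRNA-Glu, chrVII:328583-328674, plus strand), whose interval meets the coding gene VPS45 on the opposite strand, had 91.6, 82.9 and 121 total reads under DMSO and 603, 601 and 589 under IAA in RDY73. The groups did not overlap, and the log2 change was 2.61 (SE 0.19, adjusted p = 5.03e-18, edgeR). In RDY251 its total reads were 67.6, 75.2 and 79.3 under DMSO and 349, 394 and 477 under IAA (2.46, SE 0.20, adjusted p = 3.3e-16). SOE1 was also raised in RDY247 (1.72), RDY237 (1.42) and RDY249 (1.35), whereas in RDY234 it had 78.0, 64.1 and 54.2 reads under DMSO and 83.1, 48.3 and 50.3 under IAA. Its T>C reads in RDY73 were 12.6, 18.2 and 23.2 under DMSO and 3.81, 7.68 and 7.46 under IAA, lower in every IAA library (-1.49, adjusted p = 0.000441). In RDY251 its T>C reads were 13.0, 11.7 and 10.5 against 12.6, 16.01 and 16.4, which overlapped (0.34, SE 0.39, adjusted p = 0.383). T>C reads made up 18.1% of SOE1 reads in RDY73 under DMSO (95% Wilson interval 14.1 to 22.9%) and 1.05% under IAA (0.764 to 1.43%).

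Other tRNA genes of the rule moved alike in total reads. YNCK0005C (tRNA-Glu, chrXI:140998-141089, minus strand) had 75.4, 37.4 and 71.9 reads in RDY73 under DMSO and 458, 534 and 524 under IAA (3.03, SE 0.23). YNCE0018W (tRNA-Glu, chrV:354934-355025, plus strand) had 27.8, 12.1 and 36.5 against 248, 285 and 283 (3.42, SE 0.26). SUF2 (tRNA-Pro, chrIII:123557-123648, minus strand) had 54.8, 25.3 and 60.8 against 291, 389 and 429 (2.97, SE 0.24). In each, replicate B was the lowest DMSO library and no IAA library came near the DMSO range. YNCN0004W (tRNA-Thr, chrXIV:104805-104897, plus strand), whose sequence does not hold the B box letters searched and whose interval meets WSC2 on the opposite strand, had 25.1, 14.2 and 29.9 against 182, 202 and 212 (3.11, SE 0.26). The adjusted p of these 4 lay between 9.47e-18 and 3.56e-16 (edgeR). Without DMSO replicate B their log2 changes were 2.77, 3.09, 2.68 and 2.86.

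YNCP0009W, a tRNA-Gly gene among the first 5 raised in RDY237, RDY247, RDY249 and RDY251, had 50.3, 59.6 and 49.8 total reads in RDY73 under DMSO and 253, 235.6 and 219.5 under IAA (2.15, SE 0.19). In RDY251 it had 27.7, 31.0 and 39.2 against 102, 129.7 and 131 (1.89, SE 0.20). Its T>C reads in RDY251 were 5.20, 5.52 and 8.60 against 3.43, 5.60 and 8.20, in overlap, from few reads. SOE1, YNCK0005C and YNCP0009W had the 3 highest T>C changes in RDY251 (0.34, 0.05 and -0.14).

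Some tRNA intervals with many reads did not follow. YNCE0028C, a tRNA-Arg gene with the highest T>C reads of its class, had 2490, 3334 and 2395 total reads under DMSO and 3380, 2916 and 2659 under IAA in RDY73, which overlapped (0.12, SE 0.16, adjusted p = 0.461). Its T>C reads were 279, 388 and 289.7 against 27.6, 15.4 and 12.8 (-4.09, SE 0.25, adjusted p = 7.66e-30). SUF16 (tRNA-Gly, chrIII:142681-142771, minus strand) had 1217, 826 and 1235 total reads under DMSO and 219.7, 196 and 209.6 under IAA (-2.39, SE 0.19, adjusted p = 5.24e-17), with T>C reads of 200.3, 124 and 205 against 5.23, 0.640 and 2.07 (-5.93). Its groups did not overlap in either count, and its interval shares bases with that of the snoRNA gene SNR33. YNCE0022C, a tRNA-Lys gene with the lowest T>C change of its class in RDY73, had 79.0, 84.9 and 95.1 T>C reads under DMSO and 0.476, 1.28 and 0 under IAA. Those came from 3 reads as counted, a ratio of 0.0058 (0.0012 to 0.017 for counting error).

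**Figure D3:**
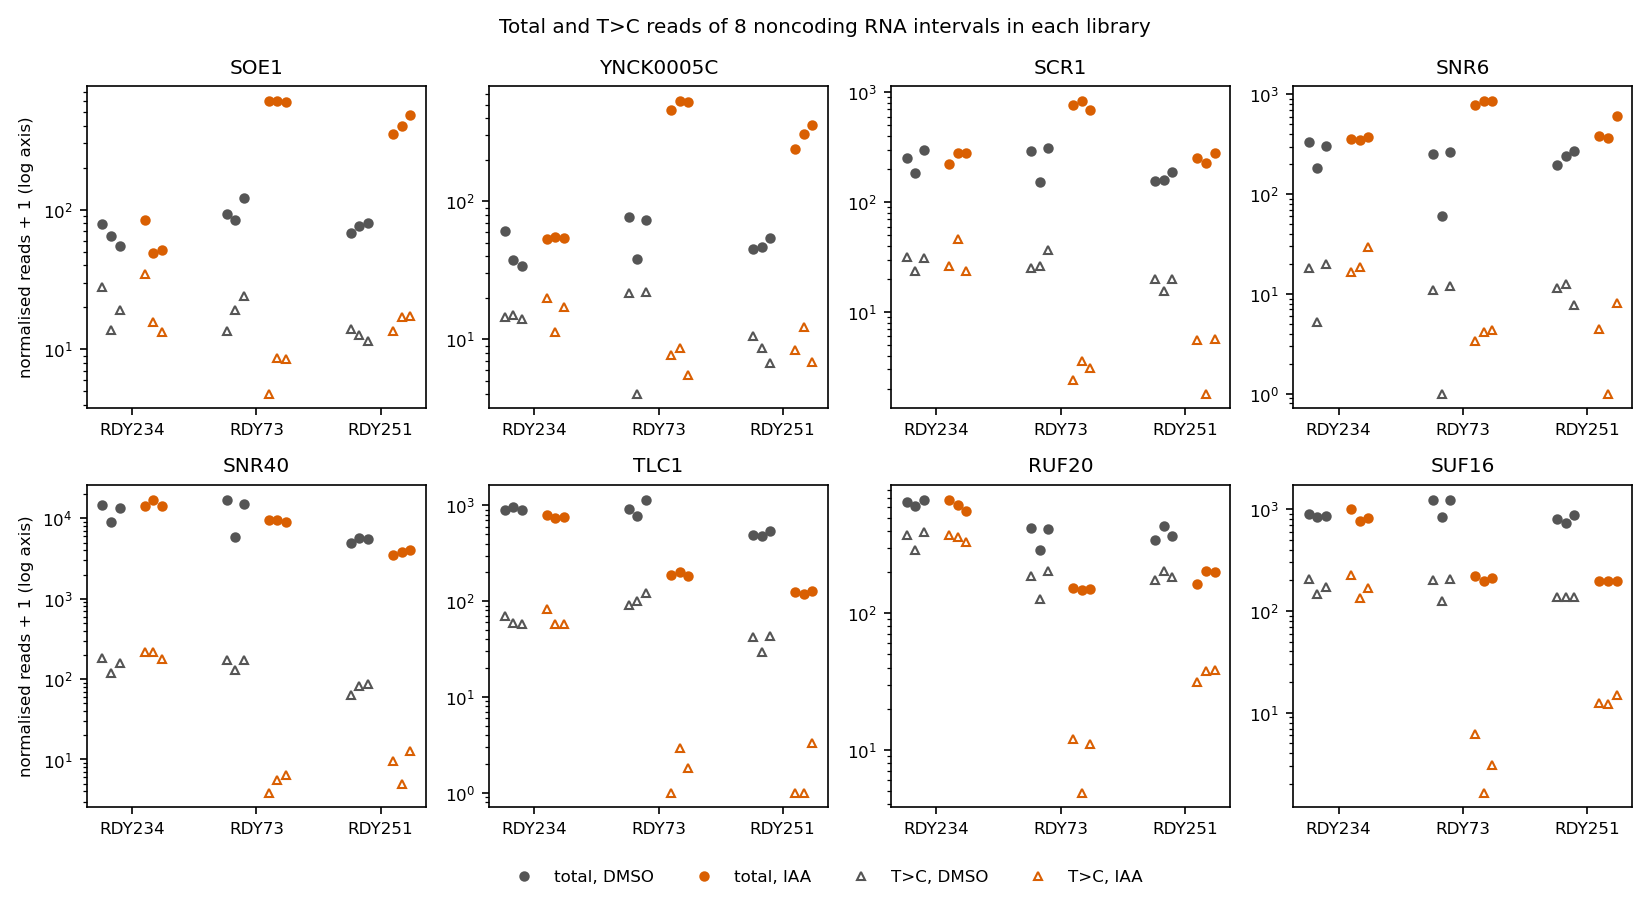
Normalised total reads (filled circles) and T>C reads (open triangles), each plus 1 on a log axis, of 8 members in RDY234, RDY73 and RDY251, with DMSO in grey and IAA in orange and 1 point per library. SOE1, YNCK0005C, SCR1 and SNR6 had more total reads under IAA than under DMSO in RDY73, SNR40 overlapped, and TLC1, RUF20 and SUF16 had fewer.

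Copies of 1 mature tRNA differed in direction for some sequences and not for others. The 275 tRNA genes encode 56 mature sequences over 20 isotypes, 21 of them with 1 gene, so that 254 genes have at least 1 identical copy. Reads within the mature part cannot be told apart between copies, although the reads that SLAM-DUNK marked as multimapping were 0.538% of tRNA interval reads. In 13 sequences some copies were raised and others lowered in RDY73. By contrast, all 3 tested copies of the tRNA-Met gene EMT1 were raised (1.42 to 3.05), as were 5 of 6 copies of the tRNA-Lys gene YNCD0003W, whose lowest change was 0.39. The 8 tested copies of the 13-copy tRNA-Glu gene ranged from -4.46 to 3.42, with 4 raised and 1 lowered. The lowered copy, YNCB0018W (chrII:645167-645258, plus strand), is identical to SOE1, YNCK0005C and YNCE0018W over the mature tRNA. It had 23.3, 21.2 and 16.6 total reads under DMSO and 0, 1.28 and 1.24 under IAA in RDY73 (-4.46, SE 0.55, adjusted p = 1.13e-10), chosen for mention after its values were seen. It held 5 reads under IAA and 62 under DMSO as counted, a normalised ratio of 0.0399 (95% interval 0.0125 to 0.0982 for counting error).

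**Figure D4:**
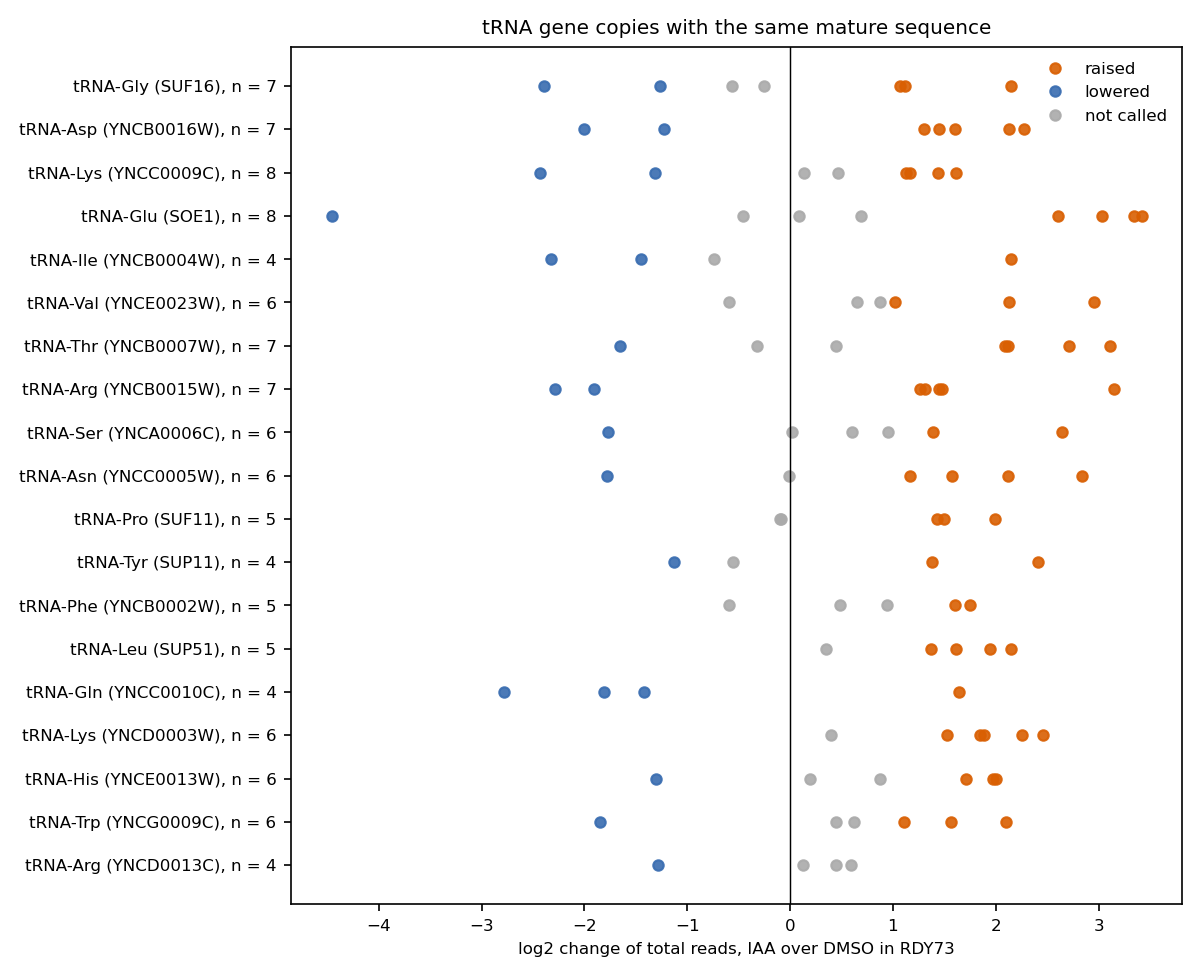
Log2 change of total reads in RDY73 for tRNA genes without coding overlap, with 1 row per mature sequence that has at least 4 tested copies and 1 point per gene. Orange copies were raised, blue lowered and grey not called. The tRNA-Glu row that holds SOE1 spans -4.46 to 3.42.

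By isotype, raised genes were found for each of the 20 kinds of tRNA in RDY73, and lowered genes for 14 of them. Of 14 tRNA-Lys genes tested without coding overlap 9 were raised and 2 lowered (median 1.30), and in RDY251 8 and 2 (1.06). Of 10 tRNA-Leu genes 6 were raised and none lowered (1.30), and in RDY251 5 and none (0.61). All 4 tRNA-Met genes lay above 0 in both strains, with 3 raised in RDY73 (2.03) and 4 in RDY251 (1.82). The tRNA-Gln genes went the other way, with 4 of 6 lowered and 1 raised in RDY73 (-1.62) and 4 lowered and none raised in RDY251 (-1.47). These are counts of few genes each, and no difference between isotypes was tested.

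The order of the tRNA intervals was much the same in strains that share no library. Across the 151 intervals the total change in RDY73 and in RDY251 had a Spearman correlation of 0.891 (Pearson 0.914), and in RDY73 and RDY247 of 0.875. These are correlations across genes, which are not independent replicates and share the spike-in scale of each library. Of the 87 members raised in RDY73, 60 were raised in RDY251, which is 69.0% of the first list and 87.0% of the second, and 41 of the 42 raised in RDY247 were raised in RDY73 (97.6%). Of the 26 lowered tRNA intervals, 20 were lowered in RDY251 and none was raised. The T>C change and the total change of the 45 tRNA intervals tested for both went together (Spearman 0.845 in RDY73), although both come from the same libraries.

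**Figure D5:**
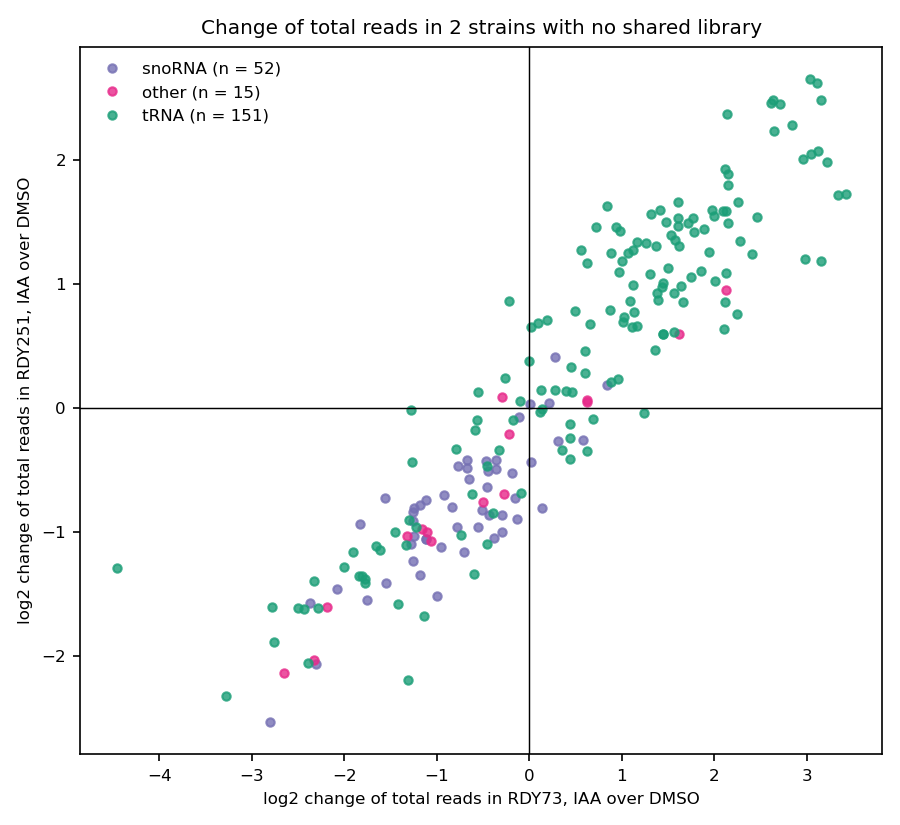
Log2 change of total reads under IAA in RDY73 (x axis) and RDY251 (y axis) for members without same-strand coding overlap, 1 point per gene, coloured by class. The tRNA points run along the diagonal (Spearman 0.891, n = 151) and the snoRNA points lie mostly below 0 on both axes.

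Features of the genes were counted for the raised, lowered and uncalled tRNA intervals, with no test. The exact letters GTTCGANNC were found in 67.1% of the 76 raised, 73.1% of the 26 lowered and 73.5% of the 49 not called. TTTT followed 73, 25 and 49 of them. Other forms of the B box were not searched, so a gene without these letters is not shown to lack a B box. The change was not ordered by the number of identical copies (Spearman -0.03) or gene length (0.12). It was lower at intervals with more total reads in RDY73 under DMSO (Spearman -0.35). The median of these DMSO reads was 16.5 for the raised, 125 for the lowered and 21.0 for the uncalled intervals. The change is computed from the same DMSO reads, so this correlation is not between independent values. The neighbourhood of the interval was counted too. Of 64 tested tRNA intervals that met a coding interval on the opposite strand, 44 were raised and 2 lowered in RDY73 (median 1.43). Of 87 that met no coding interval on either strand, 32 were raised and 24 lowered (0.44). In RDY251 these numbers were 39 and 0 of 64 (1.26) and 25 and 23 of 87 (0.15). Whether counting used strand is not given in the sources used here, and the part of the opposite strand in this result was not tested. YNCK0005C, YNCE0018W, SUF2 and YNCP0009W met no coding interval on either strand. Of the other members with values given below, SNR6, RPR1, SNR9, SNR83, SNR17B, SNR19, TLC1, LSR1, RUF20, RME2 and RME3 met one on the opposite strand.

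Among the RNAs other than tRNA that RNA polymerase III makes, SCR1 and SNR6 were raised in total reads and RPR1, SNR52 and ZOD1 were not called. SCR1, the RNA of the signal recognition particle, had 288, 153 and 311 total reads in RDY73 under DMSO and 771, 839 and 689.7 under IAA (1.61, SE 0.23, adjusted p = 6.3e-09). Its T>C reads were 24.2, 25.3 and 35.4 against 1.43, 2.56 and 2.07 (-3.75, SE 0.45, adjusted p = 4.14e-13). The IAA libraries were thus all above the DMSO libraries in total reads and all below them in T>C reads. SNR6 (U6 snRNA, chrXII:366235-366366, plus strand) had 251, 59.6 and 262 total reads against 779, 858 and 865 (2.13, SE 0.32, adjusted p = 2.97e-08). Without DMSO replicate B its change was 1.70 and that of SCR1 1.36. The T>C reads of SNR6 were 9.88, 0 and 11.1 against 2.38, 3.20 and 3.31, so the groups overlapped, and its call (-1.21, SE 0.60, adjusted p = 0.0456) was lost without replicate A or C under DMSO or any 1 IAA library. In RDY251, total reads of SCR1 changed by 0.60 (SE 0.24) and of SNR6 by 0.95 (SE 0.31), under the 2-fold that a call required. Against RDY234, the responses of SCR1 (1.53, adjusted p = 3.15e-05) and SNR6 (1.73, adjusted p = 0.000431) in RDY73 were larger in total reads.

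RPR1, the RNA of RNase P, had 198, 87.9 and 176 total reads under DMSO and 131, 125 and 139.6 under IAA in RDY73 (-0.22, SE 0.24, adjusted p = 0.356). SNR52, a box C/D snoRNA gene read by RNA polymerase III, had 83.5, 24.3 and 91.8 against 53.3, 58.9 and 87.0 (0.01, SE 0.30, adjusted p = 0.976). In both, the IAA libraries lay within the DMSO range, which replicate B widened downward. Of 19 genes for RNA polymerase III and its factors, a coding list, 18 were lowered in total reads in RDY73 (median -2.72; all genes 84.8%, -2.25) and 17 in RDY251 (-1.99; all genes 76.5%, -1.55), and all 19 were lowered in T>C reads in RDY73 (-6.01).

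No snoRNA interval was raised in total reads in any strain by edgeR or by DESeq2, and at an unadjusted p under 0.05 edgeR put 6 of the 75 above 0 in RDY247 (DESeq2 4), 2 each in RDY73, RDY237 and RDY234, 1 in RDY251 and 0 in the other strains. Of all 75 tested, 33 were lowered in RDY73 and 31 in RDY251, and of the 52 without coding overlap 19 (median -0.69) and 16 (-0.81). Of all genes tested, 84.8% were lowered in RDY73 (median -2.25) and 76.5% in RDY251 (-1.55). In RDY73 the highest change of a snoRNA interval was 0.84 (SNR73) and the lowest -3.99 (SNR79, with a coding overlap). SNR40 (box C/D, chrXIV:89210-89326, plus strand) had 17047, 5897 and 15285 total reads under DMSO and 9436, 9510 and 9116 under IAA in RDY73. The low replicate B put the groups in overlap (-0.45, SE 0.32, adjusted p = 0.18), and without it the change was -0.79. Its T>C reads were 171, 130.4 and 171 against 2.85, 4.48 and 5.38, far apart (-5.17, SE 0.33, adjusted p = 1.2e-28). T>C reads were 1.23% of its reads under DMSO (1.12 to 1.34%). The shares differed widely between snoRNA intervals, with 20.6% in SNR9 and 38.1% in SNR83 in the same group.

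Further snoRNAs with many T>C reads were of the box H/ACA kind. SNR9 had 1063, 866 and 1235 total reads under DMSO and 726, 771 and 806 under IAA (-0.46, SE 0.17, adjusted p = 0.0114), under 2-fold, with T>C reads of 193, 197 and 264 against 7.13, 14.7 and 10.4 (-4.36). SNR83 had 457, 339 and 502 against 202, 175 and 159 (-1.28, SE 0.20, adjusted p = 7.41e-08), with T>C reads of 155, 151 and 190.2 against 3.81, 2.56 and 2.48 (-5.75). In both genes every IAA library was below every DMSO library. By list, 16 of 29 box H/ACA snoRNAs (median -1.25) and 17 of 46 box C/D snoRNAs (-0.72) were lowered in total reads in RDY73. The 9 snoRNAs inside introns were lowered in 7 (-1.88) and the 16 in polycistronic units in 3 (-0.68). These lists were not limited to intervals without coding overlap, and 23 of the 75 tested snoRNA intervals had one. Differences between the lists were not tested and not separated from that overlap. Of all genes tested, 84.8% were lowered in RDY73 (median -2.25). The interval of SNR18, a snoRNA inside an intron, shares 352 bases with that of the coding gene EFB1 on the same strand. Reads in such intervals cannot be given to the snoRNA with certainty. The U3 genes, whose RNA acts in cleavage of the pre-rRNA, differed. SNR17A had 363, 142 and 304 total reads under DMSO and 257, 216 and 271 under IAA, in overlap (-0.12, SE 0.28, adjusted p = 0.685), and its interval overlaps the coding gene IRC13. SNR17B had 120.3, 77.8 and 154 against 25.7, 28.2 and 29.0 (-2.08, SE 0.24, adjusted p = 1.8e-11). T>C reads of SNR17A were 72.7, 39.4 and 70.8 against 1.43, 1.92 and 4.56 (-4.40).

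Genes that act on these RNAs, as coding lists, were mostly lowered, as were 84.8% of all genes in RDY73 and 76.5% in RDY251. All 8 genes of snoRNP proteins (median -2.22), 9 of 9 of the TRAMP complex and nuclear exosome, which trim and degrade nuclear RNA (-2.43), and 2 of 3 of the Nrd1 complex, which ends transcription of short noncoding RNAs (-1.82), were lowered in total reads in RDY73. In RDY251 the counts were 8, 9 and 1. T>C reads of all 20 were lowered in RDY73 as were 99.9% of all genes.

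Among the other RNAs made by RNA polymerase II, SNR14 was raised in total reads in RDY73, and the others named here were lowered or not called. TLC1, the template RNA of telomerase, had 927, 776 and 1148 total reads under DMSO and 185, 201 and 182 under IAA in RDY73 (-2.33, SE 0.12, adjusted p = 1.42e-23). In RDY251 it had 490.3, 481 and 543 against 123, 119 and 128 (-2.03, SE 0.13, adjusted p = 1.43e-19). Neither strain had any overlap. Its T>C reads in RDY73 were 89.8, 99.1 and 122 against 0, 1.92 and 0.828, from 5 reads as counted, a ratio of 0.00800 (0.00260 to 0.0189 for counting error). LSR1, the U2 snRNA, had 6554, 4910 and 5729 total reads against 2921, 2786 and 2004 (-1.16, SE 0.18, adjusted p = 5.46e-08), and T>C reads of 150.0, 118 and 175 against 8.56, 9.60 and 7.04 (-4.14). NME1, the RNase MRP RNA, had 360.1, 79.9 and 356 total reads against 119, 127 and 125 (-1.10, SE 0.28, adjusted p = 0.000328), and its interval overlaps that of SNR66. Its replicate B lay below the IAA libraries, and the change was -1.53 without B, while the call was lost without A (-0.81) or C (-0.84) and with the replicate letter as a block (-0.97). SNR14, the U4 snRNA, had 28.7, 12.1 and 18.8 against 110.3, 95.4 and 101 (2.34, SE 0.33, adjusted p = 5.37e-09), without overlap of the groups, but its interval shares bases with the coding gene SEC3. U5 (SNR7-L and SNR7-S, whose intervals overlap) changed by 0.62, under 2-fold, and U1 (SNR19) by -0.50.

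Among transcripts known for acting on neighbouring genes, SRG1, which crosses the SER3 promoter, had T>C reads of 536, 388 and 610.3 under DMSO and 11.9, 14.7 and 10.8 under IAA in RDY73 (-5.37, SE 0.27), and 876, 650.0 and 944 total reads against 362, 397 and 392 (-1.10, SE 0.17, adjusted p = 5.57e-08). The groups did not overlap, though the interval shares bases with SER3 and the call in total reads was lost without DMSO replicate C (-0.99), and T>C reads made up 62.0% of its reads under DMSO (60.1 to 63.9%). RUF20 had 420.3, 288 and 412 total reads against 152, 147 and 149 (-1.32, SE 0.20, adjusted p = 1.65e-08), and its T>C reads were 185, 126 and 203 against 10.9, 3.84 and 9.94 (-4.30). IRT1, transcribed through the IME1 promoter, had T>C reads of 19.8, 20.2 and 18.8 under DMSO and none in the 3 IAA libraries, at least 39.8-fold lower with 3 reads over the group as the floor. Its total reads were 47.6, 39.4 and 47.5 against 5.23, 7.04 and 8.70 (-2.65, SE 0.30, adjusted p = 1.45e-11). ICR1, RME2 and RME3 were lowered as well (-2.26, -1.17 and -2.19), ICR1 and RME2 with a coding overlap. HRA1, PWR1, RUF21, RUF22 and RUF23 had too few reads to test.

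The difference of the response from that of RDY234 was tested for total reads too, a test chosen after seeing the data. It was positive for 70 members in RDY73 (all genes raised 2.2%), 51 in RDY251 (1.51%), 19 in RDY247 (1.42%), 13 in RDY249 (1.2%) and 9 in RDY237 (0.982%). For SOE1 the difference was 2.70 (adjusted p = 2.08e-11) in RDY73 and 2.55 (adjusted p = 3.78e-10) in RDY251. It was positive for no member in RDY235 (0.0%) or RDY236 (0.0%), where edgeR gave 4 and 25 members at an unadjusted p under 0.05 in either direction and DESeq2 called 0. Without IAA replicate C the RDY247 count was 38, and without IAA replicate A or B it was 12. TMM scaling moved the median change of all genes in total reads in RDY73 from -2.25 to 0.00. The raised tRNA genes named above stayed raised under TMM, but this upward shift left little room for another outcome, so it is no check of them. With TMM 223 members were raised and 3 lowered in RDY73. The share of all genes raised under TMM was not counted, so the 223 cannot be read as a result about the members.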

How the data were processed

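The deposited values were raw read counts per gene, 1 library per table, not pooled or normalised. The authors trimmed reads with fastp 0.23.2, aligned and counted them with SLAM-DUNK on the R64 genome, and gave for each interval a total read count and a count of T>C reads with at least 2 conversions. Size factors were medians of ratios over total counts of 4955 S. pombe genes. One edgeR 4.0.16 quasi-likelihood fit of all 48 libraries (R 4.3.3), with 1 coefficient per group, was run for T>C and 1 for total reads. Genes with a mean of at least 10 reads were tested. A call required an adjusted p under 0.05 and 2-fold. Every p with 3 replicates per group comes from this model. The scripts were tested on simulated counts. Replicates were biological per the study's methods. The labels give 6 min of 4tU and the methods 4 min. No unlabelled library was used, so T>C reads without 4tU were not measured. Intervals on ratios and shares cover counting error only, and reads had no molecular identifiers. Alternatives were DESeq2 1.42.0, TMM and other spike-in scalings, other filters, a replicate block and leaving out each library. Members, classes and gene lists were chosen with earlier results of these data known. Genes named were the listed single RNAs, in each class the 3 members with the most T>C reads, the 3 lowest and 3 highest T>C changes in RDY73 and RDY251, up to 5 raised per comparison by adjusted p, and the members behind counts of 5 or fewer. All 381 member names were found in the RefSeq gene table. No member was read at the level of isoforms, and near-identical tRNA copies are uncertain. Same-letter DMSO and IAA libraries deviated together at all 3 letters in RDY249 total reads only (correlations 0.300, 0.146 and 0.136 for A, B and C). In RDY235 total reads they were 0.246, -0.052 and 0.233, and single letters of other strains also passed 0.1. Nothing in the labels ties equal letters to a shared culture or day.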

Additional observations from a re-analysis of the deposited data

Results flagged for a closer look

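The IAA response of T>C reads differed from that of RDY234, by the interaction term of the edgeR fit, for 137 members in RDY73, 129 in RDY251, 105 in RDY249, 94 in RDY237 and 60 in RDY247. All were larger losses than in RDY234. The response of total reads differed upward for 70 members in RDY73, 51 in RDY251, 19 in RDY247, 13 in RDY249 and 9 in RDY237. Each of these counts uses the same 6 RDY234 libraries, so they are not independent of each other.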

How the results depend on the processing

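Counts of members rest on the depth of short-RNA reads, since 138 of 381 members reached the T>C filter, and on the S. pombe scale. Under TMM scaling, T>C reads of IAA against DMSO were called for 46 members in RDY73, 41 in RDY251, 11 in RDY249, 23 in RDY247, 25 in RDY237 and 0 in RDY236. Against RDY234 under IAA the TMM counts were 46 in RDY251, 30 in RDY249, 22 in RDY247 and 28 in RDY237. For the difference of the response they were 24 in RDY251, 2 in RDY249, 2 in RDY247, 5 in RDY237 and 26 in RDY73. In total reads TMM gave 3 lowered and 223 raised in RDY73, 1 and 171 in RDY251, 3 and 82 in RDY249, 2 and 96 in RDY247, 3 and 87 in RDY237 and 1 and 3 in RDY236. Its responses above that of RDY234 numbered 148 in RDY251, 39 in RDY249, 45 in RDY247, 43 in RDY237 and 209 in RDY73. Single genes changed sign under TMM. T>C changes became 3.87 for SOE1, 1.55 for SCR1, 4.11 for SNR6, 0.18 for SNR40, 1.00 for SNR9, 1.07 for RUF20, 1.22 for LSR1, 1.27 for YNCE0028C and 0.93 for SNR17A in RDY73, and 1.12 for SCR1 and 0.84 for YNCE0028C in RDY251. Total changes became 2.04 for RPR1, 1.16 for NME1, 1.82 for SNR40, 1.81 for SNR9, 0.98 for SNR83, 0.93 for RUF20, 1.09 for LSR1, 1.16 for SRG1, 2.14 for SNR17A and 0.18 for SNR17B in RDY73, and 1.04 for SNR40 and 0.22 for YNCB0018W in RDY251. TMM assumes that most genes do not change, so this follows from its construction. The shares of all genes called were not counted under TMM or the other alternatives.

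With no filter on low counts, T>C reads were called for 291 members in RDY73, 230 in RDY251, 160 in RDY249, 149 in RDY237 and 9 in RDY236, against RDY234 for 290 in RDY251, 166 in RDY249, 164 in RDY247 and 160 in RDY237, and for the difference of the response for 218 in RDY251, 145 in RDY237 and 275 in RDY73. With a mean of at least 30, they were called for 58 in RDY251, 44 in RDY249, 29 in RDY247, 39 in RDY237, 1 in RDY236 and 60 in RDY73. Against RDY234 the counts were 59 in RDY251, 36 in RDY249, 35 in RDY247, 36 in RDY237 and 2 in RDY236, and for the response 59 in RDY251, 50 in RDY249, 34 in RDY247, 46 in RDY237 and 60 in RDY73. Total reads at that filter were raised for 39 in RDY251, 14 in RDY249, 24 in RDY247, 9 in RDY237, 0 in RDY236 and 45 in RDY73, and lowered for 18 in RDY249, 9 in RDY247, 12 in RDY237 and 0 in RDY236, and the response was higher for 32 in RDY251 and 43 in RDY73. Fewer members are tested there. The filter on DMSO libraries, chosen after seeing the data, gave 6 T>C calls and 0 raised in RDY236 and 11 raised in RDY237. Without members that overlap a coding interval, T>C calls were 37 in RDY247 and 55 in RDY237, against RDY234 56 in RDY237 and 3 in RDY236, and 52, 15 and 45 members had lowered total reads in RDY73, RDY237 and RDY251. DESeq2 gave 3 T>C calls for RDY236 against RDY234, S. pombe T>C reads 22 lowered totals in RDY249, and summed S. pombe reads 7 T>C responses in RDY236, where the cause was not tested.

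Deviations of same-letter DMSO and IAA libraries correlated over 0.1 in 9 of 24 pairs of strain and letter in total reads (different letters 7 of 48) and in 3 of 24 in T>C reads (0 of 48). Only RDY249, in total reads, had all 3 letters over 0.1, and its counts with the replicate block were again 35 lowered and 24 raised. With a replicate block, T>C responses in RDY236 numbered 6, no other count moved by over 1.5 times, and the total change of NME1 in RDY73 was -0.97, which ended its call.

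Leaving out each library in turn, T>C calls ranged from 125 to 132 in RDY251, 77 to 123 in RDY249, 39 to 67 in RDY247, 77 to 95 in RDY237, 1 to 9 in RDY236, 0 to 0 in RDY235, 0 to 0 in RDY234 and 135 to 140 in RDY73. Against RDY234 they ranged from 132 to 137 in RDY251, 75 to 105 in RDY249, 77 to 98 in RDY247, 78 to 89 in RDY237, 1 to 3 in RDY236 (each library) and 0 to 0 in RDY235, and for the response from 125 to 132 in RDY251, 79 to 117 in RDY249, 38 to 75 in RDY247, 80 to 99 in RDY237, 0 to 6 in RDY236, 0 to 0 in RDY235 and 134 to 140 in RDY73. Lowered totals ranged from 66 to 83 in RDY251, 17 to 50 in RDY249, 8 to 24 in RDY247, 18 to 32 in RDY237, 1 to 6 in RDY236 and 82 to 97 in RDY73, and raised totals from 58 to 78 in RDY251, 18 to 36 in RDY249, 32 to 67 in RDY247, 14 to 29 in RDY237, 0 to 1 in RDY236 and 78 to 94 in RDY73. Responses above that of RDY234 ranged from 36 to 59 in RDY251, 9 to 15 in RDY249, 12 to 38 in RDY247, 4 to 11 in RDY237 and 60 to 78 in RDY73. RDY247 IAA replicate C moved the RDY247 counts most (T>C calls 39, lowered 8, raised 67). Raised totals in RDY237 were 29 without DMSO A, lowered totals in RDY249 were 20 without DMSO A and 17 without IAA C, and the 9 responses in RDY237 were 4 or 5 without replicate C of RDY234 or RDY237 under either treatment. Total changes in RDY73 ranged from -0.50 to 0.01 (0.0083 without DMSO A) for RPR1 and -0.39 to 0.29 for SNR52, which was -0.25 without IAA C, and from -0.43 to 0.16 for SNR17A, the highest without DMSO A.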

Other observations

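YNCB0002W, a tRNA-Phe gene on chromosome II and among the 3 tRNA intervals with the most T>C reads, had fewer total reads in RDY73 than in any strain with an added BDF1 copy. The RDY73 libraries held 309, 445 and 422 reads under DMSO and 185, 283 and 313 under IAA. The lowest of the 42 libraries of the other strains held 584 (RDY249 under IAA, replicate C) and RDY251 held 1139, 1507 and 1575 under DMSO. It was noticed after its values were seen, and the difference between strains was not tested. Replicates of some strains were far apart, with 1854, 1883 and 669 reads in RDY247 under DMSO and 1516, 664 and 1294 in RDY249.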
